A study of Homo sapiens with 6 samples.

Results

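The genes described here are 51 human genes of the G2 to M transition and of mitosis, namely mitotic cyclins and kinases and genes of the spindle, the kinetochore, the spindle checkpoint and cytokinesis. They were taken by gene symbol from the deposited table, in which each of the 51 names matched 1 row among 32692 genes. RNA was measured in DU145, a human prostate carcinoma cell line, 24 h after addition of OTI-611 at 5 µM or of its solvent DMSO alone. There were 3 libraries with OTI-611 and 3 with DMSO, and their numbers follow the labels. Nothing in the labels tells separate cultures from repeats of one culture, and p-values here speak of the spread among libraries alone, which may be technical. OTI-611 is known here by its code name only, and the series title speaks of targeting CHD1L, a chromatin remodeller.

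Entry into mitosis is driven by CDK1 bound to cyclin B, which the WEE1 kinase holds inactive and the CDC25 phosphatases release. Spindle motors and kinetochores then align the chromosomes, and the spindle checkpoint holds back the anaphase-promoting complex (APC/C) until every kinetochore is attached. Most of these genes are transcribed late in the cell cycle, through FOXM1 and the MuvB complex bound to a promoter element called the cell cycle genes homology region (CHR). DU145 is known to lack functional RB, the pocket protein that restrains cell cycle genes.

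The deposited numbers look like RPKM, that is, read counts divided by the length of the gene and the size of the library, except in DMSO 1, which holds whole numbers only. The steps between low values gave estimated depths of 37300000 to 37700000 reads in the OTI-611 libraries and of 30650000 and 32350000 reads in DMSO 2 and DMSO 3, and no estimate for DMSO 1. Depth thus differed between the groups, and its part in the results was not tested, although each tested member had at least 1229 estimated reads in each of these 5 libraries. For the tested members, DMSO 1 lay on average 0.338 RPKM below the mean of DMSO 2 and DMSO 3. The epithelial markers KRT8, KRT18, KRT19, EPCAM and CDH1 were all detected, but not all at like levels in both groups. CDH1, which encodes E-cadherin, had 1.54 ± 0.15 RPKM with OTI-611 and 4.40 ± 0.40 RPKM with DMSO (SD, n = 3 each; log2 fold change -1.09, limma adjusted p = 7.11e-06), and KRT8 had 105.05 ± 3.3 RPKM with OTI-611 and 148.6 ± 4.1 RPKM with DMSO (-0.50, adjusted p = 1.07e-06). KRT19 passed as higher (0.13, adjusted p = 0.028) with overlapping groups, a call lost without DMSO 1 (adjusted p = 0.11), and EPCAM and KRT18 did not pass. The part of these markers in the results was not tested. Among markers of blood, endothelial and stromal cells, PTPRC, PECAM1, CDH5 and COL3A1 reached at most 0.0316 RPKM in the 5 libraries with decimals. COL1A1 lay at 0.163, 0.190 and 0.170 RPKM with OTI-611 and at 0.661 and 0.735 RPKM in DMSO 2 and DMSO 3. All of these markers stood at 0 in DMSO 1, whose whole numbers may hide values below 1 RPKM.

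The mitotic genes differed both ways and by small amounts between the OTI-611 and DMSO libraries. Of 49 members tested, 23 rose, 12 fell and 14 did not pass an adjusted p of 0.05 (limma on log2(value + 1), Benjamini-Hochberg adjustment over 11978 genes). Across all genes tested, 27.8% rose and 37.3% fell, so the members held a larger share of rises (46.9%) and a smaller share of falls (24.5%). All 49 had a mean above 10 RPKM, and among the 5557 genes at or above that level 36.1% rose and 40.5% fell. The members' log2 fold changes, OTI-611 minus DMSO, ran from -0.38 in ESPL1 to 0.67 in KIF18A with a median of 0.05, against a median of -0.05 over all genes tested. The median size of the passing changes was 0.27 in the members and 0.39 in all genes on that scale. The groups did not overlap in 23 members that lay higher with OTI-611 and in 13 that lay lower, against 30.5% and 39.7% of all genes tested.

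Without DMSO 1, 22 members rose and 10 fell, where 26.3% of all genes rose and 41.9% fell, and the median log2 fold change of the members was 0.02. By role, the counts moved only among the cyclins, with 2 rises and 2 falls of 7, and the spindle motors, with 3 rises and 1 fall of 6. The calls lost were those of WEE1 (adjusted p = 0.052), DLGAP5 (adjusted p = 0.054) and HMMR (adjusted p = 0.060). Among the OTI-611 libraries, the first gave the highest of the 3 values in 30 of the 49 members and the second gave the lowest in 32. Without OTI-611 1 the counts were 23 higher and 13 lower of 49, beside 3065 higher and 4328 lower of all 12041 genes tested. Without OTI-611 2 they were 22 higher and 12 lower of 49, beside 2990 and 4140 of 12032 genes. In RNA from whole cultures, a change in the number of cells in G2 or mitosis and a change in RNA per cell cannot be told apart.

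**Figure D1:**
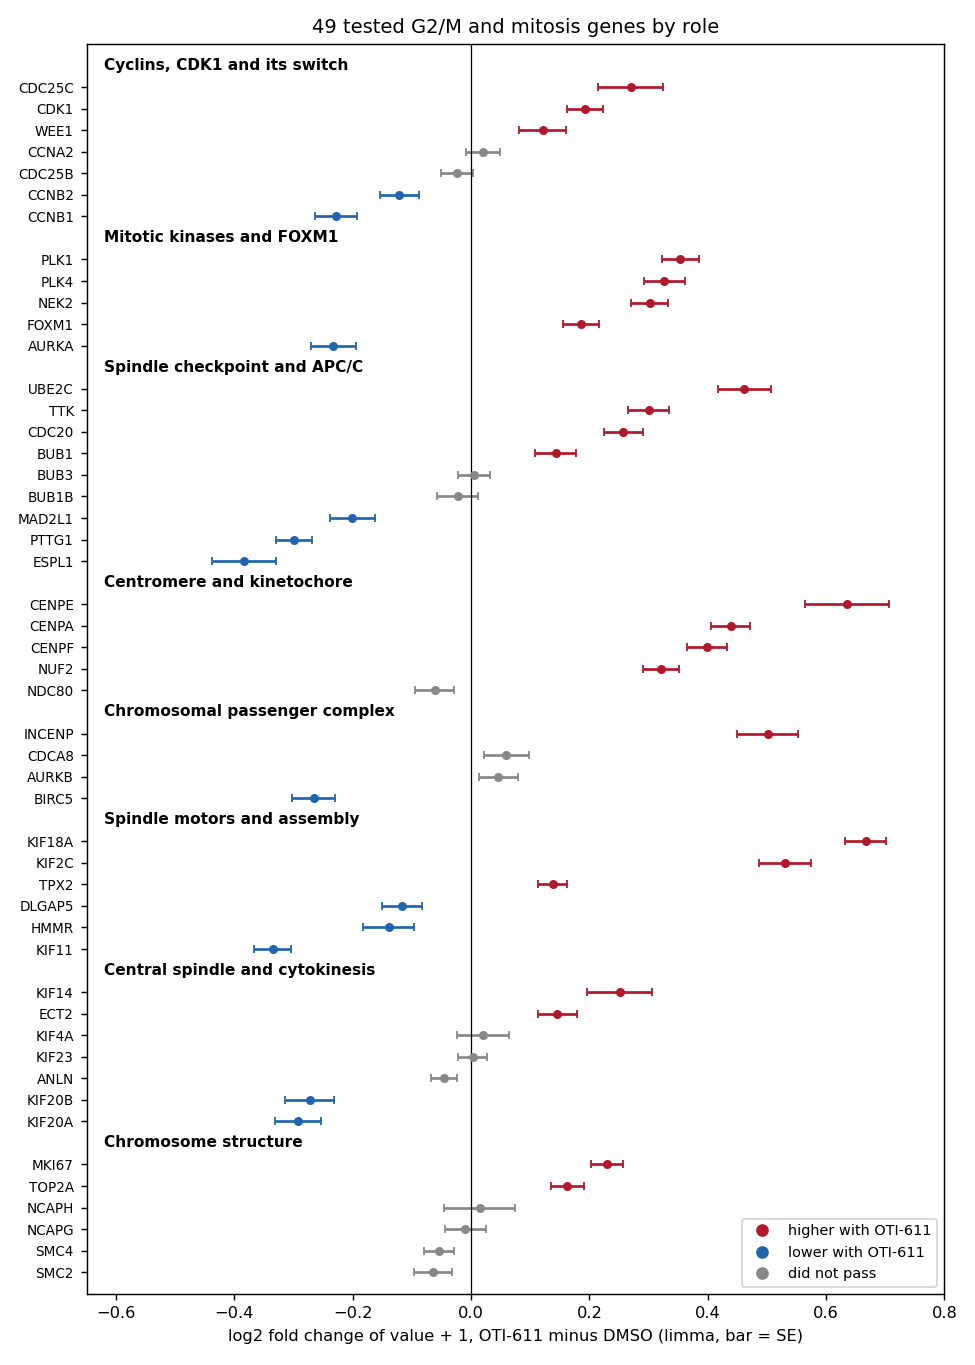
Log2 fold change of value + 1, OTI-611 minus DMSO, for the 49 tested members in 8 role groups, with bars for the standard error from limma. Rises (red) and falls (blue) occur side by side in 6 of the 8 groups, and the centromere and chromosome structure groups hold no fall that passed.

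The CHR letters that late cell cycle genes are known to carry were common in the members' promoters, whichever way the gene moved. RefSeq promoter windows (GRCh38.p14, 250 bases before to 50 bases after a gene's start) were found for 43 of the 51 members. A gene with more than 1 window (9 of the 43 members and 5191 of 27305 genes) was counted as holding the letters if any of its windows did. The 6 letters TTTGAA, or the variant spelled with a C as TTCGAA, were searched on both strands and stood in 34 of these 43 (79.1%), against 19.5% of all 27305 genes with a window and 14.9% of the 8820 such genes that were tested. CCAAT, the element bound by NF-Y, stood in 34 of 43 members (79.1%), in 39.7% of all genes and in 43.4% of the tested genes with a window. It stood in 15 of 18 members that rose, in 10 of 10 that fell and in 7 of 13 that did not pass. CHR letters were present in 15 of 18 members that rose, in 7 of 10 that fell and in 10 of 13 that did not pass. Among tested members the median log2 fold change was 0.04 in the 32 with CHR letters and 0.02 in the 9 without. A match to these letters is a description of the window and not a measured binding site.

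Promoter stretches are shown for 3 members with CHR letters and no annotated exon of any gene in the 120 bases before the start. They are the 120 bases before the RefSeq start, 5′ to 3′ on the gene's strand, and capitals mark CHR letters and CCAAT, either of them on either strand. MKI67 rose, and ESPL1 and KIF11 fell. Holding CHR letters was a condition for being shown, and in each the nearest begin within 31 bases of the start. In MKI67 the CHR letters nearest the start share a base with the CCAAT letters, which lie on the other strand.
MKI67 (chr10:128126424-128126543, minus strand): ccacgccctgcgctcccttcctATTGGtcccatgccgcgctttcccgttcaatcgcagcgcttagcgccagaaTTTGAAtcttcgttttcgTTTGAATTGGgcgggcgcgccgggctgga
ESPL1 (chr12:53268179-53268298, plus strand): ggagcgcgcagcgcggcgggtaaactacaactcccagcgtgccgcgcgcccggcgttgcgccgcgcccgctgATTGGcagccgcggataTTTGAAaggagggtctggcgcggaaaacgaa
KIF11 (chr10:92593010-92593129, plus strand): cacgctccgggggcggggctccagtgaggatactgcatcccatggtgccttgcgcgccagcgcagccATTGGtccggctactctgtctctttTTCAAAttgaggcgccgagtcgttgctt

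Stretches of 30 bases around the CHR letters nearest the start (in capitals) let the element be compared between genes that rose (KIF18A, INCENP, CENPA, PLK1, CDC20), fell (HMMR, CCNB2, DLGAP5) and did not pass (KIF23).
KIF18A (chr11:28108149-28108178, minus strand): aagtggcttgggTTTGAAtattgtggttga
INCENP (chr11:62123989-62124018, plus strand): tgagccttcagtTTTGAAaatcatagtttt
CENPA (chr2:26786026-26786055, plus strand): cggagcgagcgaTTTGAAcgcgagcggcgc
PLK1 (chr16:23678848-23678877, plus strand): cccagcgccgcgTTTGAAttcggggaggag
CDC20 (chr1:43358904-43358933, plus strand): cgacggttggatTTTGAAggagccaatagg
HMMR (chr5:163460598-163460627, plus strand): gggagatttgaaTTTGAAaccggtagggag
CCNB2 (chr15:59105105-59105134, plus strand): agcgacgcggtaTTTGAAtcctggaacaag
DLGAP5 (chr14:55191677-55191706, minus strand): cctttcaatcaaTTCAAAtatcgcacggag
KIF23 (chr15:69414282-69414311, plus strand): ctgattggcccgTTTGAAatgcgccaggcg
The flanking bases differ from gene to gene. The 6 capital letters are those searched for, so their likeness follows from the search and says nothing about direction. In DLGAP5 they read on the other strand. In HMMR the same letters stand once more, not in capitals, just before those marked.

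**Figure D2:**
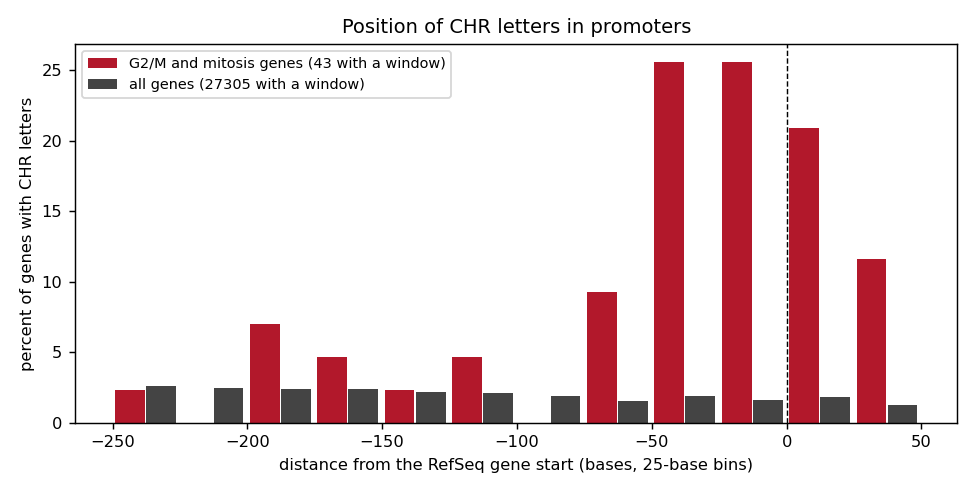
Percent of genes with CHR letters starting within each bin of 25 bases, by distance from the RefSeq start, for 43 members (red) and all 27305 genes (grey), counting every window of a gene. In each of the 2 bins before the start 25.6% of the members hold them, against 1.93% and 1.60% of all genes.

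The role groups hold 4 to 9 tested members each, and their counts are to be read beside the 36.1% of genes at this level that rose and the 40.5% that fell. Among the cyclins and the CDK1 switch, the kinase and its B cyclins moved in opposite directions. CDK1, the kinase that starts mitosis, stood at 131.6, 125.7 and 131.8 RPKM with OTI-611, against 117, 112.4 and 110.6 RPKM with DMSO. All OTI-611 libraries were higher, a log2 fold change of 0.19 ± 0.030 (SE, adjusted p = 0.000397). CCNB1, which encodes cyclin B1, its main mitotic partner, stood at 186.6, 167.5 and 176.8 RPKM with OTI-611, against 206, 207.9 and 208.0 RPKM with DMSO. All OTI-611 libraries were lower, a log2 fold change of -0.23 ± 0.036 (SE, adjusted p = 0.000423). CCNB2, a second B cyclin, stood at 50.9, 47.9 and 51.5 RPKM with OTI-611, against 54, 54.1 and 55.6 RPKM with DMSO. It also fell without overlap, by 0.12 on the log2 scale, a call lost after rescaling each library to the median log ratio.

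The phosphatase gene CDC25C stood at 20.6, 18.8 and 19.9 RPKM with OTI-611, against 16, 15.2 and 17.6 RPKM with DMSO, and all OTI-611 libraries were higher (log2 fold change 0.27, adjusted p = 0.00198). WEE1, which encodes the opposing kinase, rose by 0.12 on that scale with 12.4 ± 0.15 RPKM with OTI-611 and 11.4 ± 0.33 RPKM with DMSO (SD, n = 3 each), and this call was lost without DMSO 1 (adjusted p = 0.052), OTI-611 2 (0.075) or OTI-611 3 (0.064). CCNA2, the cyclin gene of S phase and G2, did not pass, with 53.1 ± 1.1 RPKM with OTI-611 and 52.4 ± 1.2 RPKM with DMSO (SD, n = 3 each), nor did the phosphatase gene CDC25B, with 68.6 ± 0.78 RPKM with OTI-611 and 69.8 ± 1.7 RPKM with DMSO. CDK1, CDC25C and WEE1 thus rose, CCNB1 and CCNB2 fell, and the libraries of the groups overlapped for CCNA2 and CDC25B.

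Of the role group of FOXM1 and the kinases PLK1, NEK2, PLK4 and AURKA, 4 rose and AURKA fell. Other kinase genes among the members are given with their complexes, and AURKB and BUB1B there did not pass. PLK1, the kinase that drives centrosome maturation and mitotic entry, stood at 43.2, 41.1 and 43.5 RPKM with OTI-611, against 33, 32.7 and 33.6 RPKM with DMSO. The groups were far apart, a log2 fold change of 0.35 ± 0.031 (SE, adjusted p = 9.68e-06). NEK2, a kinase that separates centrosomes, stood at 47.1, 44.9 and 45.5 RPKM with OTI-611, against 38, 36.99 and 36.03 RPKM with DMSO. PLK4, the kinase of centriole duplication, stood at 32.6, 31.5 and 31.0 RPKM with OTI-611, against 25, 24.4 and 25.9 RPKM with DMSO. Both genes rose without overlap, by 0.30 and 0.33 on the log2 scale. FOXM1, the transcription factor of late cell cycle genes, stood at 40.8, 42.1 and 42.6 RPKM with OTI-611, against 37, 35.8 and 37.2 RPKM with DMSO, higher in all OTI-611 libraries (log2 fold change 0.19, adjusted p = 0.000473). AURKA, the Aurora A kinase of spindle poles, stood at 75.3, 67.7 and 72.2 RPKM with OTI-611, against 83, 84.1 and 86.1 RPKM with DMSO. It fell without overlap, by 0.23 on the log2 scale (adjusted p = 0.00052).

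**Figure D3:**
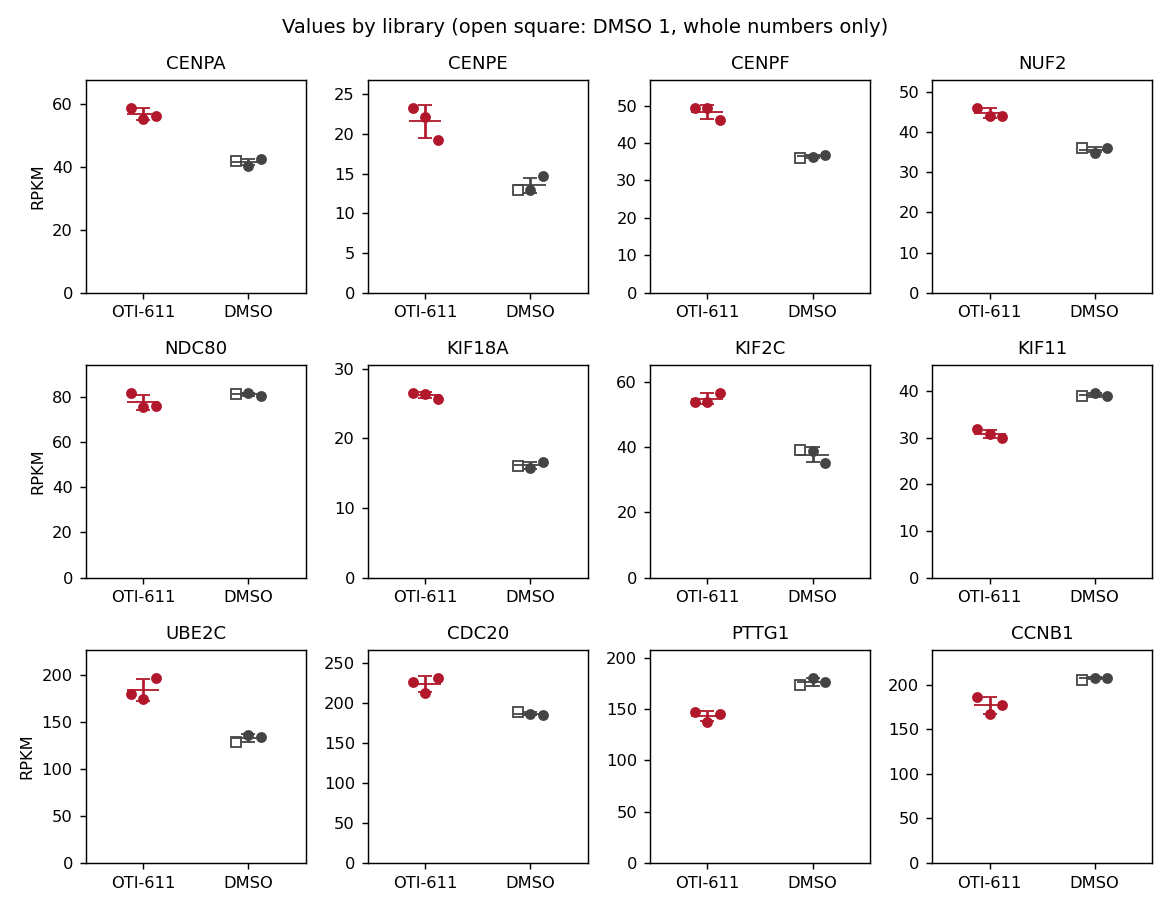
RPKM of 12 members in each library, OTI-611 left and DMSO right, with the mean and SD of each group and an open square for DMSO 1, from a baseline of 0. CENPA, CENPE, CENPF, NUF2, KIF18A, KIF2C, UBE2C and CDC20 lie higher with OTI-611, KIF11, PTTG1 and CCNB1 lie lower, and the NDC80 groups overlap.

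Around the APC/C, the members CDC20 and UBE2C rose while the genes of securin and separase fell. UBE2C, a ubiquitin-conjugating enzyme of the APC/C, stood at 179.7, 174.0 and 196.8 RPKM with OTI-611, against 128, 136.4 and 134.1 RPKM with DMSO. The groups did not overlap, and the log2 fold change was 0.46 ± 0.045 (SE, adjusted p = 1.66e-05). CDC20, which activates the APC/C in mitosis, stood at 225.8, 212.3 and 231.3 RPKM with OTI-611, against 188, 186.7 and 184.6 RPKM with DMSO, again without overlap (log2 fold change 0.26). PTTG1, which encodes securin, an APC/C substrate that restrains separase, stood at 147.4, 137.5 and 145.0 RPKM with OTI-611, against 173, 180.5 and 176.1 RPKM with DMSO. Each OTI-611 library lay lower, and the log2 fold change was -0.30 ± 0.031 (SE, adjusted p = 2.70e-05). ESPL1, which encodes separase, the protease that cleaves cohesin, stood at 11.8, 10.7 and 10.3 RPKM with OTI-611, against 14, 15.1 and 14.6 RPKM with DMSO. Its log2 fold change of -0.38 ± 0.054 (SE, adjusted p = 0.000202) was the lowest among the tested members.

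The spindle checkpoint genes themselves were divided. TTK, the kinase that starts checkpoint signalling at kinetochores, stood at 34.5, 33.0 and 33.2 RPKM with OTI-611, against 27, 28.0 and 26.3 RPKM with DMSO, higher in all OTI-611 libraries (log2 fold change 0.30). BUB1, a kinetochore kinase, rose by 0.14, with 75.5 ± 3.7 RPKM with OTI-611 and 68.2 ± 0.28 RPKM with DMSO (SD, n = 3 each). MAD2L1, which encodes MAD2, the inhibitor that binds CDC20, stood at 20.76, 20.05 and 20.83 RPKM with OTI-611, against 23, 23.5 and 24.8 RPKM with DMSO. It was lower in all OTI-611 libraries, with a log2 fold change of -0.20 (adjusted p = 0.00127). BUB1B and BUB3, which encode other parts of the checkpoint inhibitor, did not pass, with log2 fold changes of -0.02 and 0.004.

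At the centromere and kinetochore, 4 of 5 members rose and none fell, where 27.8% of all genes rose and 37.3% fell (36.1% and 40.5% of genes with a mean of at least 10 RPKM). CENPA, the histone variant that marks centromeres, stood at 58.9, 55.2 and 56.2 RPKM with OTI-611, against 42, 40.5 and 42.4 RPKM with DMSO. The OTI-611 mean was 1.36-fold the DMSO mean, and the log2 fold change was 0.44 ± 0.033 (SE, adjusted p = 3.60e-06). CENPE, a kinetochore motor that carries chromosomes to the spindle equator, stood at 23.4, 22.2 and 19.3 RPKM with OTI-611, against 13, 13.0 and 14.7 RPKM with DMSO. Its OTI-611 mean was 59.6% above the DMSO mean, and the log2 fold change was 0.63 ± 0.071 (SE, adjusted p = 4.33e-05). CENPF, a protein of the outer kinetochore, stood at 49.4, 49.5 and 46.2 RPKM with OTI-611, against 36, 36.4 and 36.9 RPKM with DMSO. NUF2, a subunit of the complex that binds microtubules, stood at 46.2, 44.1 and 44.1 RPKM with OTI-611, against 36, 34.9 and 36.1 RPKM with DMSO. Both rose without overlap, by 0.40 and 0.32 on the log2 scale. NDC80, the direct partner of NUF2 in that complex, did not pass, with 77.6 ± 3.3 RPKM with OTI-611 and 81.0 ± 0.79 RPKM with DMSO (SD, n = 3 each). The NDC80 groups overlapped, and its log2 fold change was -0.06 (adjusted p = 0.12), although it passed as lower without OTI-611 1 (-0.10, adjusted p = 0.010).

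The 4 genes of the chromosomal passenger complex, which corrects faulty attachments and guides cytokinesis, held 1 rise, 1 fall and 2 members that did not pass. INCENP, its scaffold, stood at 33.7, 39.5 and 36.7 RPKM with OTI-611, against 25, 25.7 and 26.0 RPKM with DMSO. Each OTI-611 library lay higher, with a log2 fold change of 0.50 ± 0.052 (SE, adjusted p = 2.50e-05). BIRC5, which encodes survivin, stood at 88.8, 79.8 and 84.9 RPKM with OTI-611, against 102, 102.1 and 101.1 RPKM with DMSO. All OTI-611 libraries were lower, with a log2 fold change of -0.27 ± 0.037 (SE, adjusted p = 0.000178). AURKB, the Aurora B kinase of the complex, stood at 104.2, 98.3 and 104.4 RPKM with OTI-611, against 96, 101.5 and 99.6 RPKM with DMSO. CDCA8, which encodes borealin, stood at 50.70, 48.32 and 49.99 RPKM with OTI-611, against 45, 49.2 and 48.8 RPKM with DMSO. The groups overlapped for both, and neither passed, with log2 fold changes of 0.05 and 0.06, although both passed as higher after rescaling to the median log ratio.

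Among spindle motors and assembly factors, 3 members rose and 3 fell. KIF18A, a motor that dampens chromosome movement at metaphase, stood at 26.6, 26.3 and 25.7 RPKM with OTI-611, against 16, 15.7 and 16.7 RPKM with DMSO. The OTI-611 mean was 1.62-fold the DMSO mean, and the log2 fold change of 0.67 ± 0.035 (SE, adjusted p = 3.87e-07) was the highest among the tested members. KIF2C, which takes apart microtubules at centromeres, stood at 53.9, 53.7 and 56.7 RPKM with OTI-611, against 39, 38.9 and 35.1 RPKM with DMSO, all OTI-611 libraries higher (log2 fold change 0.53, adjusted p = 6.17e-06). KIF11, the motor that pushes spindle poles apart, stood at 31.7, 30.7 and 30.0 RPKM with OTI-611, against 39, 39.6 and 38.8 RPKM with DMSO. All OTI-611 libraries were lower, with a log2 fold change of -0.34 ± 0.031 (SE, adjusted p = 1.15e-05). TPX2, which activates Aurora A on the spindle, stood at 127.5, 125.3 and 128.3 RPKM with OTI-611, against 113, 116.7 and 116.4 RPKM with DMSO, higher in all OTI-611 libraries by 0.14 on the log2 scale. The microtubule-binding genes DLGAP5 and HMMR fell by 0.12 and 0.14 on that scale, and both calls were lost without DMSO 1. That of HMMR was also lost without DMSO 3 (adjusted p = 0.062), OTI-611 2 (0.060) or OTI-611 3 (0.058). For HMMR the groups overlapped, with 31.1 ± 1.5 RPKM with OTI-611 and 34.4 ± 1.4 RPKM with DMSO (SD, n = 3 each).

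Genes of the central spindle and of cytokinesis also went both ways. KIF20A, a motor that takes the passenger complex to the central spindle, stood at 69.6, 63.7 and 68.8 RPKM with OTI-611, against 81, 85.6 and 81.4 RPKM with DMSO. KIF20B, a motor of late cytokinesis, stood at 12.1, 11.9 and 11.6 RPKM with OTI-611, against 15, 13.9 and 14.7 RPKM with DMSO. Both fell without overlap, with log2 fold changes of -0.29 (adjusted p = 0.000131) and -0.27 (adjusted p = 0.000316). KIF14, a midbody motor, stood at 16.1, 15.5 and 14.1 RPKM with OTI-611, against 12, 12.7 and 13.2 RPKM with DMSO. ECT2, the exchange factor that activates RhoA at the cleavage site, stood at 117.5, 114.9 and 108.7 RPKM with OTI-611, against 105, 100.6 and 102.4 RPKM with DMSO. Both rose without overlap, with log2 fold changes of 0.25 (adjusted p = 0.0029) and 0.15 (adjusted p = 0.00355). ANLN, which encodes anillin of the contractile ring, KIF23 of centralspindlin and KIF4A did not pass, with log2 fold changes of -0.05, 0.002 and 0.02, although the groups did not overlap for ANLN, which lay lower with OTI-611 and passed after quantile normalization.

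Of the chromosome structure genes, 2 rose and 4 did not pass. MKI67, the Ki-67 proliferation marker that coats mitotic chromosomes, stood at 51.2, 52.1 and 50.6 RPKM with OTI-611, against 43, 43.9 and 43.9 RPKM with DMSO. TOP2A, the topoisomerase that untangles sister chromatids, stood at 220.6, 209.7 and 214.0 RPKM with OTI-611, against 195, 187.1 and 193.1 RPKM with DMSO. Both rose without overlap, with log2 fold changes of 0.23 (adjusted p = 5.25e-05) and 0.16 (adjusted p = 0.000633). SMC4, a condensin subunit, stood at 64.2, 63.9 and 64.6 RPKM with OTI-611, against 68, 65.4 and 66.9 RPKM with DMSO. SMC2, its partner, stood at 30.7, 32.4 and 30.4 RPKM with OTI-611, against 33, 32.5 and 32.4 RPKM with DMSO. All OTI-611 libraries lay lower for SMC4 and the groups overlapped for SMC2, but neither gene passed (adjusted p = 0.085 and 0.11), nor did the condensin subunit genes NCAPG and NCAPH, with log2 fold changes of -0.01 and 0.01. SMC2 passed as lower without OTI-611 2 (-0.09, adjusted p = 0.039).

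NUSAP1 and PRC1, which encode microtubule-bundling proteins, were not tested, as their means lay below 1 RPKM. NUSAP1 was listed at 0.237, 0.237 and 0.235 RPKM with OTI-611 and at 0, 0.124 and 0.156 RPKM with DMSO, about 25 estimated reads in each OTI-611 library and 11 and 15 in DMSO 2 and DMSO 3. PRC1 was listed at 0.413, 0.399 and 0.356 RPKM with OTI-611 and at 0, 0.287 and 0.422 RPKM with DMSO. These levels lay far below those of the other members, the lowest of which averaged above 10 RPKM. For both genes the 0 is that of DMSO 1, whose whole numbers may hide values below 1 RPKM. In GENCODE release 29 on GRCh38, a second protein-coding gene on the same strand covers 62.2% of the exon bases of NUSAP1 (chromosome 15, 41332694 to 41381050) and 57.6% of those of PRC1 (chromosome 15, 90966038 to 90995629). Among the other members the covered share was highest in NCAPG (33.1%, a gene on the opposite strand) and SMC4 (25.6%), and it was 15.9% in FOXM1 and 12.5% in PLK1. How reads on shared bases were counted is not given in the sources used here, and the part of the overlap in these values was not tested.

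Ratios between members within a library do not depend on library scaling, and 8 were taken for pairs picked after the values were seen, not all of them partners in a complex. The NUF2 to NDC80 ratio was 0.578 ± 0.0094 with OTI-611 and 0.441 ± 0.013 with DMSO (SD, n = 3 each). The ratio of CDK1 to CCNB1 was 0.734 ± 0.025 with OTI-611 and 0.547 ± 0.019 with DMSO, and that of TPX2 to AURKA was 1.77 ± 0.079 with OTI-611 and 1.37 ± 0.019 with DMSO. The groups did not overlap in any of these pairs, and OTI-611 lay higher. The ratio of INCENP to BIRC5 was 0.436 ± 0.058 with OTI-611 and 0.251 ± 0.0060 with DMSO, and that of CDC20 to PTTG1 was 1.56 ± 0.034 with OTI-611 and 1.06 ± 0.027 with DMSO. KIF18A reached 0.851 ± 0.012 of the level of KIF11 with OTI-611 and 0.412 ± 0.016 with DMSO, a 2.06-fold difference. The groups also did not overlap in these 3 ratios, or in that of CCNB2 to CCNB1 (0.283 ± 0.0096 with OTI-611 and 0.263 ± 0.0037 with DMSO). The SMC2 to SMC4 ratio overlapped, with 0.485 ± 0.019 with OTI-611 and 0.488 ± 0.0069 with DMSO. Most of these pairs set a member that was higher in all OTI-611 libraries over one that was lower in all, so that their separation follows from the choice of pairs, and no test is given.

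**Figure D4:**
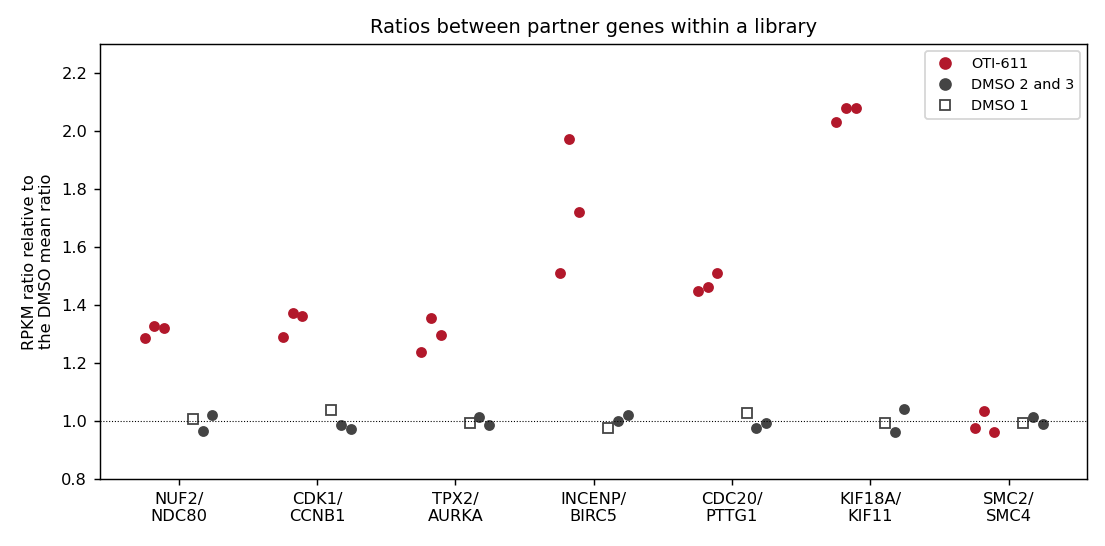
RPKM ratio of 7 gene pairs within each library, divided by the mean ratio of the DMSO libraries, with OTI-611 in red to the left and DMSO in grey to the right (open square, DMSO 1). All OTI-611 points lie above the DMSO points except for SMC2 to SMC4, and KIF18A to KIF11 stands 2.06-fold above the DMSO mean.

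The genes that surround the members were read from 7 further lists in the same fit, in which 27.8% of all genes rose and 37.3% fell. Replication and G1/S genes, which act before G2, fell in 30 of 34 tested and rose in 1, with a median log2 fold change of -0.46, against 0.05 in the members. Without DMSO 1 the falls were 30 and the rises 1, of 34 tested. FEN1, the nuclease of lagging-strand synthesis, had 39.5 ± 1.5 RPKM with OTI-611 and 86.7 ± 2.7 RPKM with DMSO (SD, n = 3 each), a log2 fold change of -1.11 (adjusted p = 2.54e-08). PCNA and MCM4, the other genes of the list with the smallest p, stood at -0.92 and -0.87.

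The other centromere and kinetochore genes went mostly against the 5 members of that role. Falls numbered 16 of 27 tested and rises 6, and the median log2 fold change was -0.15. Without DMSO 1 the counts were 15 falls and 5 rises of 27. SKA2, of a complex that couples kinetochores to microtubules, had 24.7 ± 1.8 RPKM with OTI-611 and 49.8 ± 1.1 RPKM with DMSO (SD, n = 3 each), and SKA3 of the same complex and the inner kinetochore gene CENPW fell by 0.82 and 0.78 on the log2 scale. SPC24 and SPC25, which encode the other subunits of the complex of NUF2 and NDC80, had log2 fold changes of -0.54 and -0.56 and both passed. The rises included those of CENPL (0.31), PMF1 (0.29), HJURP (0.16), CENPU (0.16) and CENPQ (0.14), with HJURP known as the chaperone that loads CENPA. The CENPQ groups overlapped, and its call was lost without DMSO 1 (adjusted p = 0.12).

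The remaining lists held rises and falls, and several lay near the shares over all genes. Of 12 genes of MuvB, E2F and pocket proteins, which govern late cell cycle promoters, 2 rose (16.7%) and 5 fell (41.7%). The falls included MYBL2, at 48.7 ± 1.9 RPKM with OTI-611 and 63.4 ± 1.4 RPKM with DMSO (SD, n = 3 each), and RBBP4 and TFDP1, at -0.43 and -0.36 on the log2 scale. The rises were those of E2F4 (0.31) and DYRK1A (0.56), and LIN9, LIN52 and LIN54 did not pass. Of 17 APC/C subunits and partners, 4 rose (23.5%) and 6 fell (35.3%), close to the 27.8% and 37.3% of all genes. The falls included ANAPC7, ANAPC2 and ANAPC1, at -0.65, -0.55 and -0.53, and the rises were those of FZR1 (0.30), CDC27 (0.18), ANAPC16 (0.25) and ANAPC10 (0.29). Of 11 other mitotic entry genes 5 rose (45.5%), among them CKS1B (0.44), which encodes a CDK-binding subunit, and BORA (0.52), a cofactor of Aurora A and PLK1, and 5 fell (45.5%), among them PBK (-0.40). Of 15 other spindle and cytokinesis genes 5 rose (33.3%), with FAM83D (0.49), CKAP5 (0.36) and NUMA1 (0.30) at the smallest p, and 5 fell (33.3%). Of 17 cohesin and other condensin genes, 7 rose (41.2%), including the cohesin loader NIPBL (0.57) and the acetyltransferase ESCO1 (0.78), and 5 fell (29.4%), including the condensin gene NCAPD2 (-0.42).

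**Figure D5:**
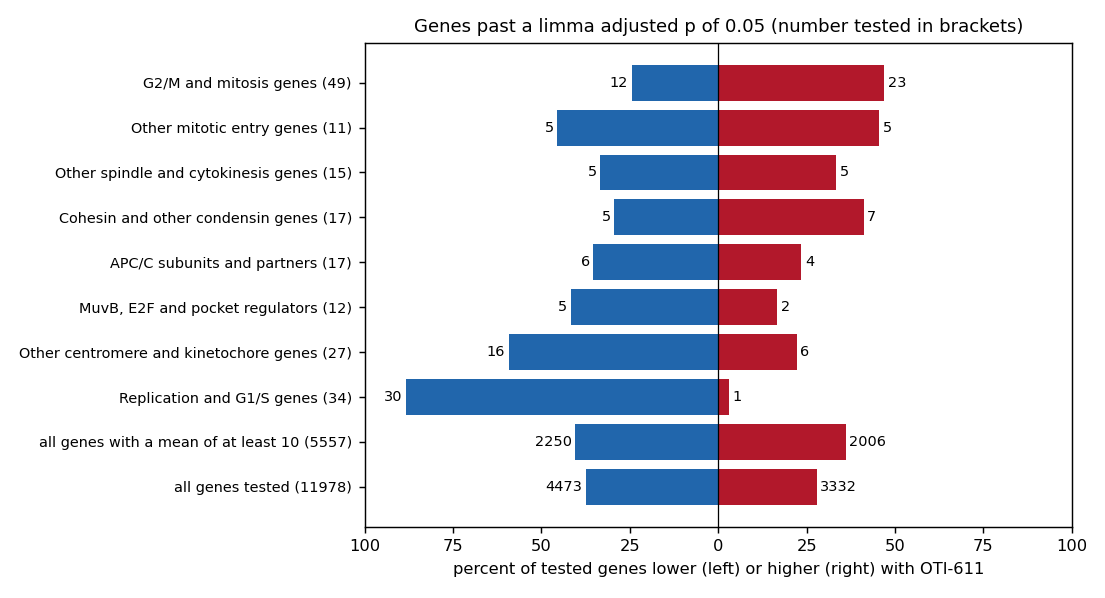
Percent of tested genes that were lower (blue, left) or higher (red, right) with OTI-611 past a limma adjusted p of 0.05, with their numbers beside the bars, for the members, 7 context lists and all genes. The members reach 46.9% higher and 24.5% lower, and the replication and G1/S list 2.94% higher and 88.2% lower.

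Gene length and level were set beside the changes as a description. The log2 fold change had a Spearman correlation of -0.009 with exon length across the 49 tested members and of 0.06 across 11764 tested genes with a length. Its correlation with the DMSO level was -0.22 across the members and -0.04 across all 11978 genes tested. The DMSO values enter both the fold change and the level, so their spread alone can push this correlation below 0, and no conclusion is drawn from it. Genes share these libraries and are not independent points.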

How the data were processed

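Gene values of 6 libraries were analysed. Per the labels' protocols, libraries were made with a TruePrep kit from mRNA that Geo-seq had amplified. Without roles or order, the submitters' processing notes list TopHat2 2.0.9, CASAVA 1.7, HTSeq, Cufflinks 2.1.1, FastQC and mm10, a mouse build, although all 32692 gene IDs are human, so the build used for this table is not established. The authors deposited 5 columns taken here as RPKM (FPKM cannot be told apart) and DMSO 1 as whole numbers, recorded as a score because no source says how they were made. DMSO 1 was fitted and is printed on the RPKM scale of the others. Depth was estimated from the steps of low values with GENCODE release 29 exon lengths, and covers counting error only. Squared differences in estimated reads between libraries of a group were, by the median over genes, 3.14 to 5.11 times the counting expectation, so none looked like a repeated deposit. DMSO 1 was not compared in this way.

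Genes with a mean of at least 1 were fitted as log2(value + 1) with limma 3.58.1 (R 4.3.3; group as the only term, mean-variance trend, two-sided, threshold 0.05), tested on simulated data. This scale understates the change of low genes. The members, role groups, lists and settings were chosen with earlier results of these data known. Of 158 context entries 156 were analysed here. Library values are given for the 4 members of each role group with the smallest p and for members called against most of their group. Context genes are named by the smallest p. The exceptions were chosen after their values were seen: SPC24, SPC25, the genes of the centromere, MuvB and APC/C lists that rose, and the LIN genes. Deviations from the group means correlated between same-numbered libraries by -0.058 to 0.019 and between the others by -0.054 to 0.056. No pairing by number was seen, but 3 libraries per group cannot exclude it.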

Additional observations from a re-analysis of the deposited data

How the results depend on the processing

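Each count was computed again under 15 other settings. Leaving out 1 library gave 22 to 23 members higher and 10 to 13 lower, and 2990 to 3320 of all genes higher and 3964 to 5080 lower. Of 735 member results, 714 stayed on the same side of the threshold, 16 lost the call and 5 gained one. The sign turned in 17, all in 9 members that did not pass in the first place and none in a called member, and 31 of the 35 called members passed in the same direction under every setting. The exceptions were WEE1, CCNB2, DLGAP5 and HMMR. CCNB2 was lost only after rescaling to the median log ratio (log2 fold change -0.07, adjusted p = 0.21), which moved the members to 25 higher and 9 lower and their median log2 fold change to 0.10, and all genes to 3986 higher and 3978 lower. AURKB (0.10, adjusted p = 0.043) and CDCA8 (0.12, adjusted p = 0.019) passed as higher under that rescaling. NDC80 passed as lower without OTI-611 1 (-0.10, adjusted p = 0.010), SMC2 without OTI-611 2 (-0.09, adjusted p = 0.039) and ANLN after quantile normalization (-0.06, adjusted p = 0.036). With the replicate number as a block, 23 members were higher and 12 lower, and 3327 and 4429 of all genes, so the replicate block changed no member's call. The cause of these changes was not tested. The whole numbers of DMSO 1 limit precision most for low genes, and 0.5 added to them left 23 members higher and 12 lower, against 3265 and 5352 of all genes, with a median log2 fold change of -0.10 over all genes.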
